A study of Mus musculus with 30 samples.

Results

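The comparison of C2C12 cells on plastic at day 4 of differentiation (D4) with the myoblasts they came from (day 0, D0) rests on 6 libraries of the 30 in the series, 3 per group, chosen by the substrate and day that the sample labels give. C2C12 is a mouse myoblast line, here obtained from ATCC and used up to passage 8. D0 cells were myoblasts in growth medium with fetal bovine serum, and D4 cells had been left in horse serum differentiation medium on a plastic culture dish. The other C2C12 libraries came from gelatin substrates and from day 7, and a further 9 libraries came from primary mouse muscle cells. All cells of this comparison are of the same line, and no allele, transgene or drug sets the groups apart. Cultures of days 4 and 7 were treated briefly with trypsin before RNA was made, a step that the methods use to enrich myotubes and do not describe for D0, so an effect of this step cannot be told apart from that of the day. The question that the comparison addresses is which genes and which transcripts of a gene change as myoblasts become myotubes with the substrate left unchanged.

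Myoblasts divide in serum, and after serum is withdrawn they leave the cell cycle, line up, fuse into multinucleate myotubes and build sarcomeres. The basic helix-loop-helix factors MYOD and MYF5 mark the myoblast and bind DNA at E-boxes as partners of E proteins. Myogenin and the MEF2 factors act after them and switch on muscle genes, while the ID proteins occupy the E proteins and hold the programme back. The CDK inhibitor p21 and the retinoblastoma protein keep the myotube nuclei out of the cell cycle. Many muscle genes also change the exons that they use, under splicing factors such as PTBP1, RBFOX1 and RBM24.

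Total estimated counts (Kallisto's estimate of the reads of each transcript, summed) were 19710604 to 27771545 per D0 library and 23290500 to 59400352 per D4 library. Of 14844 genes with enough counts to test, 8605 changed at an adjusted p under 0.05 (quasi-likelihood test of edgeR, Benjamini-Hochberg adjustment over all genes), 4487 higher (30.2% of those tested) and 4118 lower (27.7%) at D4. With library totals alone in place of the TMM scaling (which sets most genes level), the median of all genes moved from 0.00 to -0.19 on the log2 scale, and 3253 genes were higher and 5631 lower. On the log2(TPM + 1) scale (TPM, the share of a transcript among all transcripts after correction for length) with limma, 2711 were higher and 5253 lower. Since so many genes passed, a test of a change beyond 2-fold (edgeR's glmTreat) was used beside it, and 1183 genes (7.97%) were higher and 986 (6.64%) lower by that test. The numbers of list members that rose or fell are to be read against the shares of all genes, 30.2% and 27.7%. A log2 fold change here is always D4 minus D0, with its standard error (SE), and CPM are counts scaled to the library total by TMM. All D4 libraries lay above all D0 libraries in 5303 of the 14844 genes and below them in 5047. A lack of overlap was thus the common case among the genes tested. In bulk RNA, fewer cells of a type and less RNA per cell cannot be told apart. The counting intervals given further on cover counting error only and leave out the spread between cultures. They may be too narrow even for that, since the reads carry no molecular identifiers.

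The markers of differentiated cells chosen for the check of the labels, Myog, Mymk, Myh3, Ckm, Acta1 and Chrna1, were higher in each D4 library than in each D0 library. Of the myoblast markers, Myod1, Myf5, Des, Cdh15 and Itga7, all were present at D0. Myf5 alone fell and Des and Itga7 rose, so the set did not fall together at D4. The D0 myoblasts were not free of the markers of differentiated cells. Myh3, the embryonic myosin heavy chain, was at 149.8, 155 and 206 CPM in D0 replicates 1, 2 and 3, and Chrna1, the alpha subunit of the muscle acetylcholine receptor, was at 459.8, 483 and 548 CPM. Cdh15, the cadherin of myoblasts, stood at 339, 431 and 435 CPM at D0 and 417, 409 and 413 at D4 (log2 fold change 0.04, SE 0.10, adjusted p = 0.761), a value that turned negative with library totals alone.

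**Figure D1:**
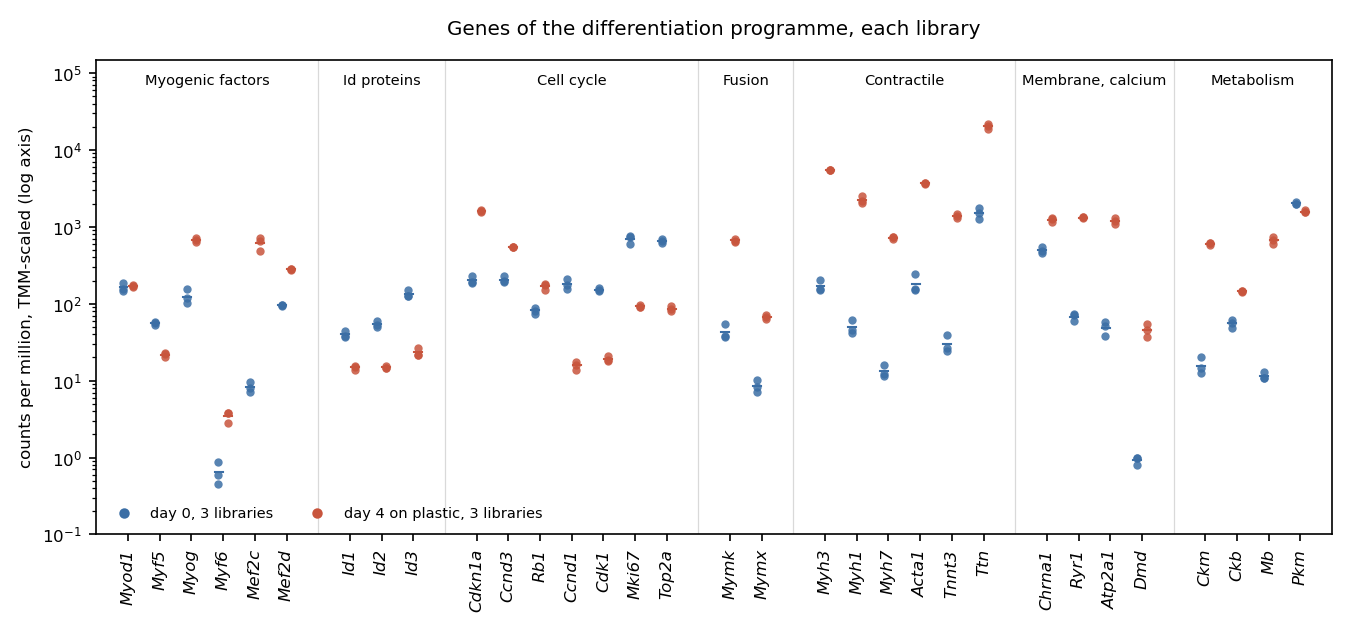
CPM on a log axis of 32 genes (horizontal axis) in each of the 3 D0 (blue) and 3 D4 (red) libraries, with the mean as a bar. The points of a group lie close together, Myod1 overlaps between the days at 163 and 171 CPM in the mean, and Ttn, at 1505 and 20242 CPM in the mean, is the highest of the genes drawn at D4.

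The myogenic factors did not move as a block: the late factors rose, Myf5 fell, and Myod1 stayed near its D0 level. Of 19 myogenic factors and cofactors tested, 9 rose and 7 fell, 7 of them rising and 1 falling beyond 2-fold. Among all genes 30.2% rose and 27.7% fell. The median log2 fold change of the list was 0.16 against 0.00 for all genes. Myog, which encodes myogenin, the factor of terminal differentiation (chr1:134289989-134292548, GRCm38), was at 101, 117 and 153 CPM in the D0 libraries and 712, 639 and 673 CPM at D4. The groups were well apart, and the log2 fold change was 2.44 (SE 0.14, adjusted p = 2.11e-11). Mef2c, a MADS-box factor that works with the bHLH factors (chr13:83504034-83667080), went from 7.98, 7.17 and 9.62 CPM to 656, 489.7 and 721 CPM. This was the largest change of the list, at 6.24 (SE 0.21, adjusted p = 7.69e-15), and D4 replicate by replicate it lay far above every D0 value. Its relatives Mef2d (1.56) and Mef2a (1.02, chosen after its value was seen) rose less, and Mef2d stood at a similar level in all D4 libraries, 285, 282 and 275 CPM. Smyd1, a muscle histone methyltransferase, rose by 3.01 on the log2 scale, Prox1, a homeobox factor of slow muscle, by 2.31, and Klf5, a zinc finger factor, by 1.82. Myf6, which encodes MRF4, rose by 2.49 but stayed low, at 2.82, 3.84 and 3.79 CPM at D4.

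Myod1 (chr7:46376474-46379099) was at 148, 158 and 184 CPM at D0 and 172, 174 and 167 CPM at D4. The groups overlapped, the log2 fold change was 0.07 (SE 0.11, adjusted p = 0.638), and its sign turned with library totals alone and without D0 replicate 1 (-0.02). Myf5, its close relative of dividing myoblasts, fell from 58.7, 52.9 and 55.9 CPM to 22.9, 20.2 and 22.2 CPM (-1.36, SE 0.12, adjusted p = 4.87e-09), with no overlap. The E protein gene Tcf3 fell by 1.06 on the log2 scale. Compared per transcript length, Myog made up 42.4% ± 3.14 of the summed TPM of the 4 MyoD family genes at D0 (SD, n = 3) and 81.5% ± 0.888 at D4, and Myod1 44% ± 1.12 and 16.2% ± 0.848.

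Factors that hold myoblasts undifferentiated mostly fell. Of 19 tested, 11 fell and 2 rose, 6 of them falling and 2 rising beyond 2-fold (median log2 fold change -0.55). Id3, an inhibitor of E proteins, went from 128, 126 and 149 CPM to 21.3, 26.8 and 21.8 CPM, so that the groups lay far apart (-2.53, SE 0.36, adjusted p = 6.21e-06). Id2 (-1.86) and Id1 (-1.42) fell too, and the summed TPM of the 4 Id genes went from 435 to 453 at D0 to 85.9 to 99.3 at D4. Msc, the bHLH repressor musculin, fell by 3.0, Twist2, a bHLH repressor of mesenchyme, fell by 2.64, and Hey1, a Notch target, fell by 1.34 on the log2 scale. Pax7, the paired box factor of satellite cells, was at 74, 83.6 and 74.2 CPM and 45.8, 56.3 and 47.6 CPM, a smaller fall of -0.63 (SE 0.18, adjusted p = 0.00473). The members that rose were Bhlhe40 (1.99), a bHLH repressor that is also a clock gene, and Zeb1 (1.22), a zinc finger repressor. Twist1 was listed at 0 in all 6 libraries and Id4 was under the filter on low counts.

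Genes of DNA replication and mitosis fell almost without exception. Of 60 mitosis genes, 60 fell, all 60 beyond 2-fold, with a median of -2.86, where 6.64% of all genes did so. Their summed level went from 6786 to 7434 CPM at D0 to 974 to 1065 CPM at D4. Of 52 S phase genes 50 fell, 44 beyond 2-fold (median -2.29), and their sum went from 3510 to 3809 CPM to 1052 to 1096 CPM. Cdk1, the mitotic kinase (chr10:69335146-69352938), was at 159, 152 and 147 CPM and then 18.6, 21.1 and 18 CPM. Its groups did not overlap, and its log2 fold change was -2.99 (SE 0.13, adjusted p = 4.93e-13). Mki67, the proliferation marker Ki-67, went from 754, 605 and 732 CPM to 90.1, 91 and 96.6 CPM (-2.91, SE 0.35), and Top2a, DNA topoisomerase II alpha, from 703, 657 and 618 CPM to 85.1, 93.6 and 80.4 CPM (-2.93, SE 0.19). Both stayed well above 0 at D4 in each library. Mcm5, a subunit of the replicative helicase, fell by 3.05 on the log2 scale. The S phase genes that did not pass were E2f2 (-0.01, adjusted p = 0.972), an E2F factor, and Wdhd1 (-0.60, adjusted p = 0.267), a replisome protein, both named after their values were seen. Wdhd1 passed on the log2(TPM + 1) scale (adjusted p = 0.0447 from limma), and the sign of E2f2 turned without D0 replicate 2, D4 replicate 1 or D4 replicate 3.

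The regulators of the cell cycle went both ways, where 30.2% of all genes rose and 27.7% fell. Of 32 tested, 13 rose and 15 fell, 5 and 5 of them beyond 2-fold (median -0.02). Cdkn1a, which encodes the CDK inhibitor p21 (chr17:29090976-29100727), was at 186, 194 and 230.4 CPM at D0 and 1637, 1569.7 and 1593 CPM at D4. All D4 values were above all D0 values, with a log2 fold change of 2.98 (SE 0.10, adjusted p = 4.53e-15). Ccnd1, the cyclin of G1, went the other way, from 211, 173 and 156 CPM to 17.6, 13.7 and 16 CPM (-3.51, SE 0.17, adjusted p = 1.7e-12). Ccnd3, the D cyclin of differentiating muscle, rose from 189, 195 and 226 CPM to 547, 541 and 544 CPM (1.42, SE 0.11). By TPM, Ccnd3 held 65.9% ± 5.49 of the 3 D cyclins at D0 and 97.1% ± 0.300 at D4, and Ccnd1 29.2% ± 5.06 and 1.46% ± 0.0880 (SD, n = 3). Rb1, the retinoblastoma gene, rose by 1.05 on the log2 scale, while its relative Rbl1, which encodes p107 and is an E2F target, fell by 2.17. Among the kinases of G1, Cdk4 fell by 1.20 and Cdk6 fell by 1.59, and of the other inhibitors Cdkn1c (p57) rose by 1.42 and Cdkn2c (p18) fell by 1.19. Cdkn2a and Cdkn2b, the inhibitors of the INK4 locus, were listed at 0 in all 6 libraries.

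The promoters of cell cycle genes are shown for Cdk1 and Ccnb2, which encodes the mitotic cyclin B2 and was chosen for its sequence (log2 fold change -2.77). The windows are the 250 bases before the start of the gene, from RefSeq on GRCm38, at chr10:69352913-69353162 and chr9:70421555-70421804, both read on the minus strand. The Cdk1 window runs into the GENCODE extent of the gene given above, since the RefSeq start used here is further in. Capitals mark the CCAAT box (CCAAT, or ATTGG where it lies on the other strand) and the letters TTTGAA of the cell cycle homology region (CHR).
Cdk1: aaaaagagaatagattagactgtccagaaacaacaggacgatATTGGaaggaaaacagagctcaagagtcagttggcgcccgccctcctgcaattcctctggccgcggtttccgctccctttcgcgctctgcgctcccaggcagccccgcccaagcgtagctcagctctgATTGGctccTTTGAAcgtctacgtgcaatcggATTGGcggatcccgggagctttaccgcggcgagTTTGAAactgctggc
Ccnb2: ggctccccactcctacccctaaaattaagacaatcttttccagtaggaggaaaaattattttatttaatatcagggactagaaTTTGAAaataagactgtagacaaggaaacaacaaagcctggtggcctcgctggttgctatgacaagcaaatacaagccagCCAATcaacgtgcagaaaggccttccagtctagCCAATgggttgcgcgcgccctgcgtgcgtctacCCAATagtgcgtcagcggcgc
Cdk1 held TTTGAA at -71 and -15 from the start and CCAAT on the other strand at -208, -80 and -48, and Ccnb2 held TTTGAA at -167 and CCAAT at -87, -54 and -21. Searched on both strands, CCAAT was in 67.3% of the windows of mitosis genes (52 windows of 49 of the 60 genes, since a gene with several starts has several windows) and in 55.8% of those of S phase genes, against 33.8% of all 32851 windows and 35.2% of the 13918 windows of genes tested. TTTGAA was in 32.7% of the mitosis windows and 15.4% of the S phase windows, against 16% of all windows and 10.9% of those of genes tested. The E2F letters TTCCCGCC were in 9.62% of the S phase windows and 0% of the mitosis windows, against 1.86% of all and 3.20% of those of genes tested. These are matches of letters and not sites.

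Fusion genes went both ways, and the muscle-specific fusogens were among those that rose. Of 29 tested, 13 rose and 10 fell, 5 of them rising and 0 falling beyond 2-fold (median 0.05). Among all genes 30.2% rose and 27.7% fell. Mymk, which encodes myomaker (chr2:27061636-27072179), was at 36.8, 38.6 and 54.1 CPM at D0 and 642, 697 and 659 CPM at D4 (3.95, SE 0.16, adjusted p = 9.45e-14). Mymx, which encodes its partner myomixer, went from 7.09, 8.20 and 10.2 CPM to 72, 67.5 and 63.7 CPM (3.0, SE 0.23). Neither gene overlapped between the days, and both were already measured in every D0 library. Dysf, the membrane repair protein dysferlin, rose by 3.25 on the log2 scale and Cav3, the muscle caveolin, by 5.53. Of the general adhesion and signalling genes, Dock1, an activator of Rac, fell by 0.94, Rac1 fell by 0.53 and Kirrel, an immunoglobulin receptor, fell by 0.85.

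The sarcomere genes rose together. Of 27 thick filament and M band genes, 27 rose, all beyond 2-fold (7.97% of all genes did), with a median of 5.01. The median was 4.90 with genes at 0 in every D0 library set at their lower bound. Of 19 thin filament genes 17 rose, 16 beyond 2-fold (median 4.22), and of 28 genes of the Z disc, titin and desmin 28 rose, 23 beyond 2-fold (median 3.15, or 2.97 with bounds). The summed CPM of the thick filament list went from 648 to 916 at D0 to 22120 to 23640 at D4. The thin filament members that did not pass were Tpm3 (-0.03, adjusted p = 0.832), a tropomyosin gene whose transcripts are taken up further on, and Tmod4 (0.44, adjusted p = 0.144), a tropomodulin named after its value was seen.

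**Figure D2:**
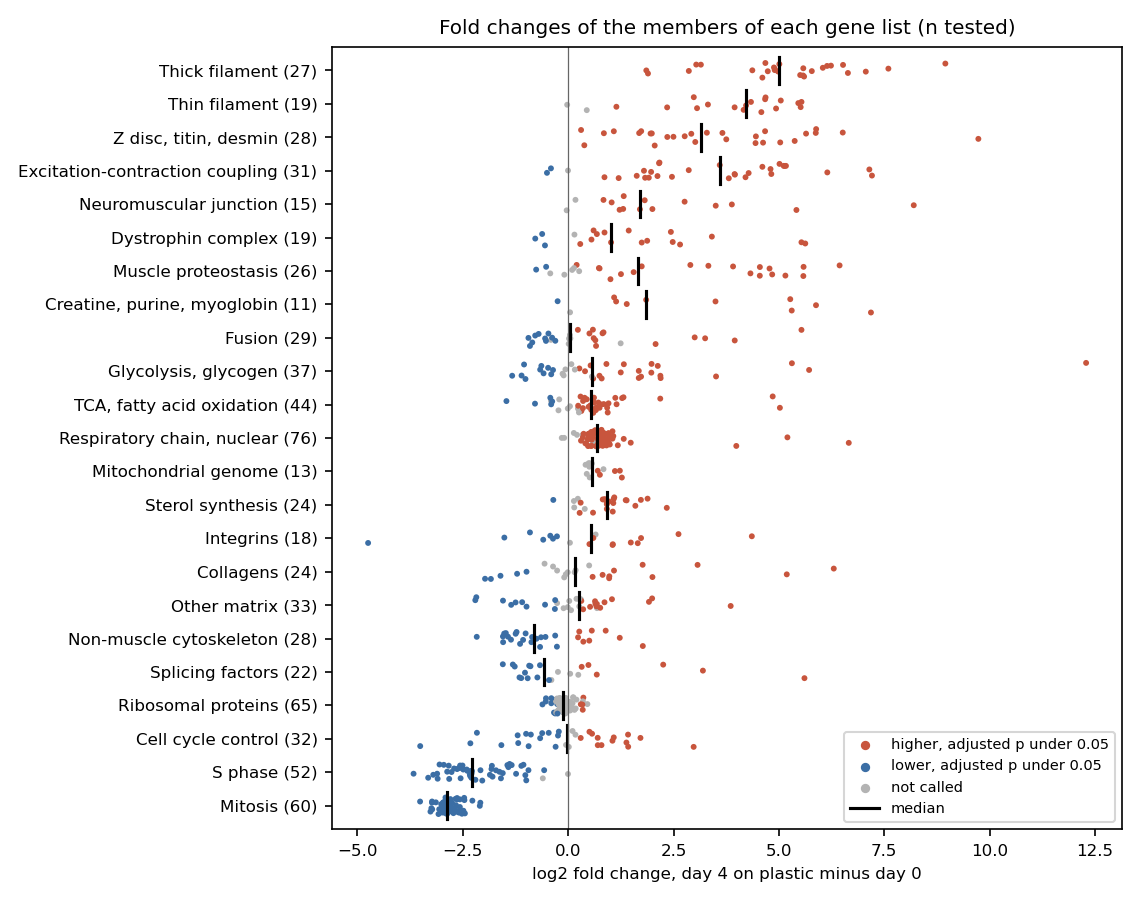
Log2 fold change (D4 minus D0) of each tested member of 23 gene lists, with the number tested in brackets and the median as a black bar. Points are red or blue where adjusted p was under 0.05 and grey where it was not. Sarcomere lists sit at the right, with a median of 5.01 for the thick filament, and S phase and mitosis genes at the left, with medians of -2.29 and -2.86.

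Among the myosin heavy chains, Myh3 led at both days and the adult fast chain Myh1 came next. Myh3 (chr11:67078300-67102291) rose to 5484, 5413 and 5546 CPM (5.01, SE 0.18, adjusted p = 1.67e-14), every value above those of D0 given before. Myh1 went from 42.1, 46 and 61.2 CPM to 2064, 2167 and 2532 CPM (5.50, SE 0.15), Myh7, the slow chain, from 11.6, 12.3 and 16 CPM to 704, 742 and 733 CPM (5.78, SE 0.14), and the perinatal Myh8 rose by 5.60. By TPM the 8 sarcomeric heavy chains summed to 66.4 to 84.6 at D0 and 2260 to 2473 at D4, and the order of the leading chains within the sum was the same. Myh3 held 66.1% ± 0.910 at D0 and 58% ± 1.80 at D4 (SD, n = 3), Myh1 20.9% ± 1.56 and 25.4% ± 1.77, and Myh7 5.33% ± 0.0584 and 7.91% ± 0.295. The heavy chain genes are near copies of each other, so reads that fit several of them were divided by Kallisto, and the smaller shares are uncertain. Of the other thick filament genes, Myl2, the slow regulatory light chain, rose by 8.95 on the log2 scale, Mybpc2, the fast form of myosin-binding protein C, by 7.06, its slow form Mybpc1 by 6.52, and Myom1 of the M band by 4.90. Myl3 and Mybpc3, the slow light chain and the cardiac binding protein C, were at 0 counts in every D0 library and were at least 23.5-fold and at least 12.3-fold higher at D4 (against a floor of 3 counts over the D0 libraries). These genes were singled out for that reason.

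In the thin filament, skeletal and cardiac actin rose and the cytoplasmic actins fell, with summed actin levels that overlapped between the days. The 6 actin genes summed to 10480 to 10790 TPM at D0 and 10570 to 11370 TPM at D4. Acta1, skeletal muscle actin (chr8:123891769-123894751), was at 149, 154 and 242 CPM and then 3720.1, 3575 and 3705 CPM (4.34, SE 0.16, adjusted p = 2.38e-14), and Actc1, the cardiac form, rose by 4.22. Actb, cytoplasmic beta actin, fell from 5618, 5308 and 6065 CPM to 1911, 2071 and 1943 CPM (-1.52, SE 0.08, adjusted p = 3.92e-12), and Actg1 fell by 1.54. None of these actins overlapped between the days. The share of Acta1 in the actin TPM went from 2.38% ± 0.474 to 40.5% ± 1.09, that of Actb from 54.6% ± 0.758 to 16.9% ± 0.644 and that of Acta2, smooth muscle actin, from 9.79% ± 0.456 to 19.1% ± 0.342 (SD, n = 3). The fast troponin T gene Tnnt3 went from 26.4, 24.2 and 39.2 CPM to 1374, 1296 and 1475 CPM (5.53, SE 0.20), and its share of the 3 troponin T genes from 22.9% ± 1.06 to 44.5% ± 1.05. Ttn, which encodes titin, was at 1252, 1508 and 1754 CPM at D0 and 20464, 18733 and 21529 CPM at D4 (3.75, SE 0.29). Of the Z disc, Actn2, alpha-actinin-2, rose by 5.03, Myoz2, a calcineurin-binding protein, by 5.64, Mypn, myopalladin, by 5.37 and Des, desmin, by 1.73. Myot, which encodes myotilin, had 1 count over the 3 D0 libraries and 1602 at D4, a scaled ratio of 1226 with an exact 95% counting interval of 219.7 to 48460.

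Genes of excitation-contraction coupling rose as well, with 28 of 31 higher, 26 of them beyond 2-fold, and 2 lower (median 3.59). Ryr1, the calcium release channel (chr7:29003344-29125179), was at 59, 73 and 71.2 CPM at D0 and 1328, 1332 and 1289 CPM at D4 (4.28, SE 0.19, adjusted p = 3.85e-13). Cacna1s, the voltage sensor of the T tubule, rose by 5.13 on the log2 scale, Casq2, a calcium store protein, by 4.82, and Hrc, the histidine-rich calcium binding protein, by 5.01. Atp2a1, the fast calcium pump SERCA1, went from 38.3, 51.1 and 57.3 CPM to 1077, 1319.9 and 1174 CPM (4.61, SE 0.21), and its share of the 3 pump genes by TPM from 15.6% ± 2.68 to 50.6% ± 0.735. No library of D4 overlapped with D0 for Ryr1 or Atp2a1. The members that fell were Itpr1 (-0.50), the inositol trisphosphate receptor, and Asph (-0.41), which also encodes an aspartyl hydroxylase and whose value was near 0 on the log2(TPM + 1) scale. Kcnj11, a potassium channel, and Sypl2, mitsugumin 29, both singled out for being at 0 counts in every D0 library, were at least 16.6-fold and at least 17.6-fold higher.

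The acetylcholine receptor and its partners rose in 13 of 15 genes, 10 beyond 2-fold, and fell in 0 (median 1.70). Chrng, the gamma subunit of the embryonic receptor (chr1:87204657-87212694), was at 30.8, 41.1 and 49.1 CPM and 424, 490.3 and 452 CPM (3.50, SE 0.15, adjusted p = 3.9e-13). Chrna1 (chr2:73563215-73580338) rose less, to 1168, 1246 and 1299 CPM from the D0 values given before (1.32, SE 0.11, adjusted p = 6.44e-09). Neither overlapped. Chrnd, the delta subunit, rose by 2.0, Dok7, an activator of the kinase MuSK, by 1.81, Erbb3, a neuregulin receptor, by 2.76 and Colq, the collagen tail of acetylcholinesterase, by 5.41. Chrne, the subunit of the adult receptor, named for its 0 counts at D0, was at least 35.7-fold higher and yet held 0.511% ± 0.0734 of the summed TPM of Chrng and Chrne at D4.

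The receptor promoters are shown because E-boxes lie in them. The windows are again the 250 bases before the start from RefSeq on GRCm38, at chr2:73580339-73580588 on the minus strand and chr1:87205561-87205810 on the plus strand. The Chrng window lies within the GENCODE extent of the gene given above, since the RefSeq start used here is further in. Capitals mark the E-boxes CAGCTG and CAGGTG.
Chrna1: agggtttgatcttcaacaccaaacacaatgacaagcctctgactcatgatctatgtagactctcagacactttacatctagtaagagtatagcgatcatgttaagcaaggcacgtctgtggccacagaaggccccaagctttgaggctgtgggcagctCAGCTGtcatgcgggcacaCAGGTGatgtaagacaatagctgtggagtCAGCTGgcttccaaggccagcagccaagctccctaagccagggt
Chrng: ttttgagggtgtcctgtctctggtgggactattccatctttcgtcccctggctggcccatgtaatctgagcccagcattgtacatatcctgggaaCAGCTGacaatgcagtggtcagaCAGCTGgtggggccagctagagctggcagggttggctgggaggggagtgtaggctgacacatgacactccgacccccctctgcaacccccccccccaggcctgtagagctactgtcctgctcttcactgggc
Chrna1 held CAGCTG at -92 and -44 and CAGGTG at -73, and Chrng held CAGCTG at -155 and -132. Searched on both strands, where CAGCTG reads the same, that E-box was in 38.5% of the windows of the receptor list (13 windows of 10 of its 15 genes), 8 of the 20 windows of excitation-contraction coupling, 34.6% of the thick filament, 38.9% of the thin filament and 17.2% of the Z disc. It was in 13% of all windows, 12.7% of those of genes tested, 20.2% of those of genes higher beyond 2-fold and 12.5% of those of genes lower beyond 2-fold. CAGGTG was in 31% of Z disc, 27.8% of thin filament, 23.1% of thick filament and 15.4% of receptor windows and in 2 of the 20 of excitation-contraction coupling, against 17.2% of all and 15.9% of those of genes tested. The MEF2 core TATTTATA was in 3 of the 26 thick filament windows, 2 of the 29 of the Z disc, 1 of the 20 of excitation-contraction coupling and 0 of the thin filament and receptor windows, against 1.56% of all and 1.09% of those of genes tested. TATAAA, the TATA box, was in 26.9% of thick filament, 17.2% of Z disc, 11.1% of thin filament and 7.69% of receptor windows and in 2 of the 20 of excitation-contraction coupling, against 12.4% of all and 7.03% of those of genes tested. The CArG core was searched only as a single fixed run of letters, without variants. That run was in 0 windows of the thick and thin filament lists and in 20 of all 32851 windows. It was too rare for the lists to be compared, and CArG boxes with other letters were not searched for.

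Dystrophin and its complex rose in 15 of 19 genes, 8 beyond 2-fold, and fell in 3 (median 1.02). Dmd, which encodes dystrophin, was near absent at D0, at 0.973, 0.993 and 0.794 CPM, and reached 45.8, 37.4 and 54.6 CPM (5.62, SE 0.51, adjusted p = 1.17e-08). Its relative Utrn, utrophin, named after its value was seen, rose by 0.68. The sarcoglycan gene Sgca (2.48) and the dystroglycan gene Dag1 (1.74) rose, while Sgce (-0.62) and the syntrophin Sntb2 (-0.78), which are not limited to muscle, fell.

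Energy metabolism shifted towards the muscle forms of several enzymes. Of 11 genes of the creatine, adenylate and myoglobin list, 9 rose and 1 fell, 7 rising beyond 2-fold (median 1.85). The fall, of Gatm (-0.25), an enzyme of creatine synthesis, was lost without D0 replicate 1 or 3 and without D4 replicate 2 or 3. Ckm, the muscle creatine kinase (chr7:19404776-19422841), went from 12.4, 14.5 and 20.3 CPM to 589, 611 and 609 CPM (5.27, SE 0.16, adjusted p = 1.95e-15), and Ckb, the brain form, rose by 1.39. By TPM Ckm held 22.7% ± 2.47 of the creatine kinases at D0 and 80.9% ± 0.608 at D4 (SD, n = 3). Mb, myoglobin, went from 10.7, 10.7 and 13.1 CPM to 744, 600.4 and 679.6 CPM (5.88, SE 0.19). Of 37 genes of glycolysis and glycogen, 21 rose and 10 fell, 14 and 1 beyond 2-fold (median 0.56). Pygm, muscle glycogen phosphorylase, rose by 5.31, Pfkm, the muscle phosphofructokinase, by 3.51, Pgam2, the muscle phosphoglycerate mutase, by 5.71, and Eno3, the muscle enolase, by 1.98 on the log2 scale. Their counterparts of other tissues, Pgam1 (-1.11) and Eno1 (-0.59), fell. The glucose transporter gene Slc2a1 (GLUT1) fell by 1.01, the hexokinase gene Hk2 rose by 1.73 and Pkm, pyruvate kinase, fell by 0.36.

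**Figure D3:**
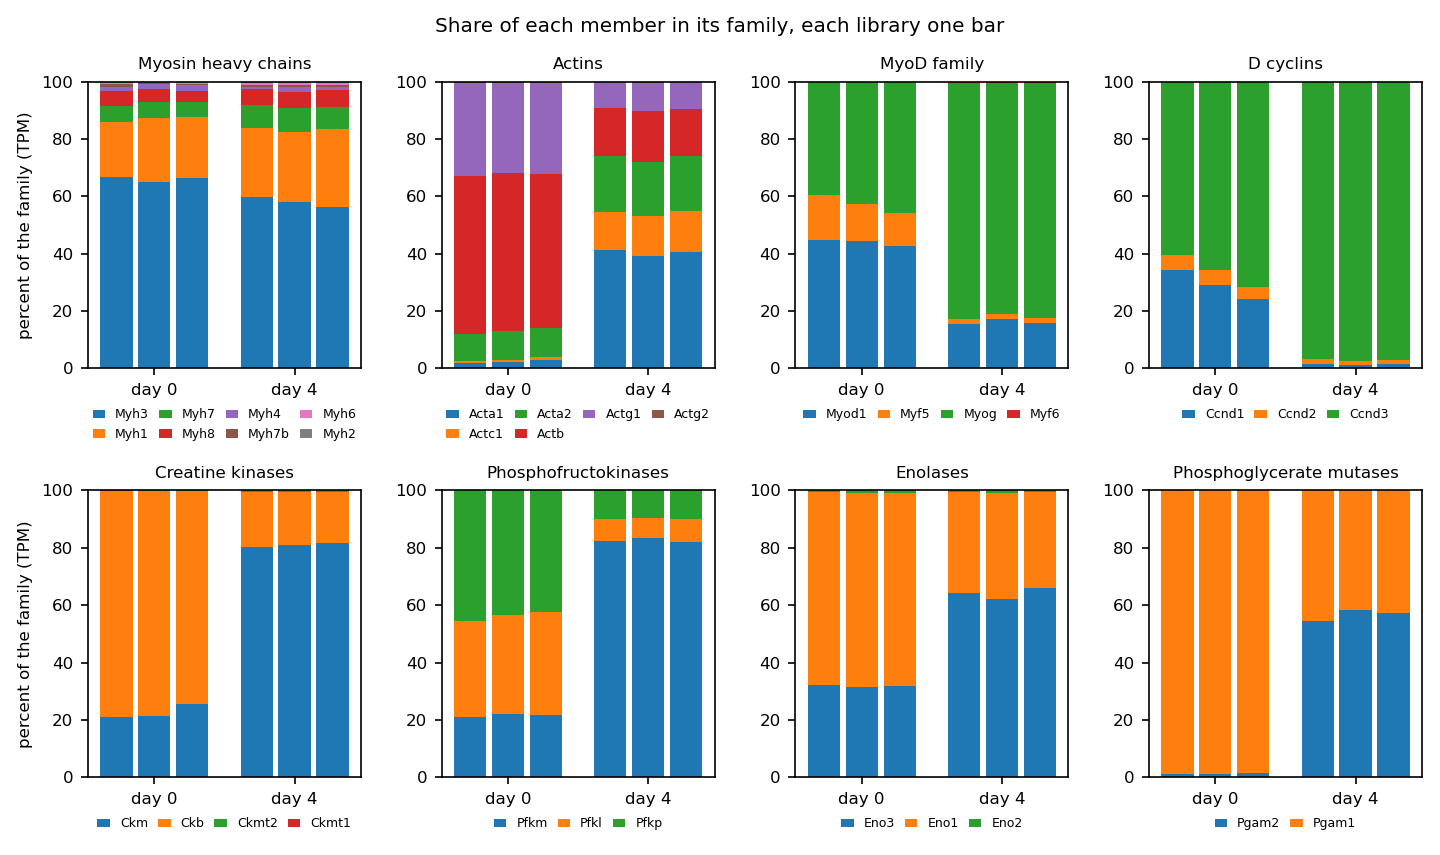
Share of each member (percent of the family's summed TPM, vertical axis) in 8 gene families, with 1 bar per library, 3 for D0 and 3 for D4. Myh3 is the largest share of the myosin heavy chains at both days, whereas other families change their leading member, with Pgam2 at 1.17% of its family at D0 and 56.8% at D4.

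Within the families of these enzymes, chosen after their values were seen, the muscle form held a larger share at D4. Pgam1 and Pgam2 summed to 385 to 426 TPM at D0 and 352 to 407 TPM at D4, and Pgam2 held 1.17% ± 0.228 and then 56.8% ± 1.95 (SD, n = 3). The 3 phosphofructokinases rose from 154 to 175 TPM to 392 to 460 TPM, with Pfkm at 21.7% ± 0.579 and 82.7% ± 0.592. The enolases rose from 1536 to 1887 TPM to 2663 to 2814 TPM, with Eno3 at 31.9% ± 0.456 and 64.2% ± 1.80. Of the 2 genes of cytochrome oxidase subunit 6a, the muscle form Cox6a2 held 0.533% ± 0.169 at D0 and 37.4% ± 3.45 at D4.

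Mitochondrial genes rose by smaller amounts. Of 76 nuclear genes of the respiratory chain, 70 rose and 0 fell, but only 5 beyond 2-fold (median 0.69). The largest rises were of the muscle subunits of cytochrome oxidase, Cox6a2 (6.66), Cox8b (5.20) and Cox7a1 (3.99). Fatty acid oxidation and the tricarboxylic acid cycle were covered by 44 genes, of which 32 rose and 5 fell, 5 and 1 beyond 2-fold (median 0.54), and 8 fell on the log2(TPM + 1) scale. Fabp3, the muscle fatty acid binding protein, rose by 5.02 and Cd36, a fatty acid transporter, by 4.85, while Cpt1a, the liver form of carnitine palmitoyltransferase, fell by 1.47. The 13 protein genes of the mitochondrial genome had a median of 0.56, with 5 higher and 0 lower. That count was 2 with library totals alone, 3 on the log2(TPM + 1) scale, 1 without D0 replicate 2, 1 without D4 replicate 3 and 12 with only the 6 libraries in the fit. Mitochondrial transcripts made up 2.05% to 2.82% of the counts at D0 and 3.07% to 3.92% at D4. Of 24 sterol synthesis genes 19 rose and 1 fell, 6 rising beyond 2-fold (median 0.92), led by Dhcr7 (2.34), the last enzyme of cholesterol synthesis. The fall of Stard4 (-0.35), a sterol carrier, was lost without D4 replicate 1 (-0.31, adjusted p = 0.0531 from edgeR).

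Most genes of the smooth and non-muscle cytoskeleton fell. Of 28 genes of smooth and non-muscle contractile proteins, 20 fell and 8 rose, 8 and 2 beyond 2-fold (median -0.81), and their sum went from 28070 to 30110 CPM to 17590 to 17820 CPM. With library totals alone and on the log2(TPM + 1) scale 5 rose. Tagln2, transgelin-2, fell by 2.17, Vim, vimentin, fell by 1.55, and Tpm4, a non-muscle tropomyosin, fell by 1.48 on the log2 scale. Acta2, smooth muscle actin, was among the members that rose. It went from 883, 899.9 and 1082 CPM to 2256, 2209.8 and 2221 CPM (1.22, SE 0.09), with no overlap.

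Matrix genes went both ways, where 30.2% of all genes rose and 27.7% fell. Of 24 collagen chains 10 rose and 5 fell, 5 and 3 beyond 2-fold (median 0.16), and 8 fell on the log2(TPM + 1) scale. Col25a1, a membrane collagen of muscle, rose by 6.30 and Col13a1, a transmembrane collagen of the neuromuscular junction, by 5.18. The chains of collagen VI, which assemble together, parted, with Col6a1 at 38.8, 50.6 and 49.9 CPM and 133, 188 and 153 CPM (1.77), Col6a2 at 8.68, 11.4 and 11.7 and 75.5, 103 and 87.2 CPM (3.07), and Col6a3 at 323, 349 and 284 and 76, 146 and 92.4 CPM (-1.61). None of the chains overlapped between days, as was so for most genes tested. Of 33 other matrix genes 13 rose and 10 fell, 3 and 3 beyond 2-fold (median 0.26; 7 higher on the log2(TPM + 1) scale), with Postn, periostin, at 1.99, Lama4, a laminin chain, at 3.85, Nid1, nidogen-1, at -2.20 and Vcan, versican, at -1.55. Of 18 integrin genes and partners 9 rose and 7 fell, 4 and 2 beyond 2-fold (median 0.55). Itga7, the laminin receptor of muscle, rose by 1.05, Itgb1bp2, melusin, by 4.36 and Itgb6 by 2.62, and Itgb3 fell by 1.52 and Itgb7 fell by 4.75. Without D4 replicate 1 the number of integrin genes that fell was 4.

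Among growth signals, Igf2 and Fst rose and the IGF-binding proteins went both ways, where 30.2% of all genes rose and 27.7% fell. Of 18 genes of the IGF list 7 rose and 7 fell, 2 and 3 beyond 2-fold (median 0.18). Igf2, an autocrine growth factor of differentiating myoblasts (chr7:142650766-142666816), was at 22.9, 26.5 and 28.4 CPM and then 213, 318 and 220.1 CPM (3.27, SE 0.21, adjusted p = 8.56e-11). D4 replicate 2 was the highest, and no D0 value came near. The binding proteins Igfbp2 (-3.17), Igfbp3 (-1.46) and Igfbp5 (-0.96) fell, and Igfbp4 (1.21) rose. Of 29 TGF-beta and BMP genes 14 rose and 5 fell, 4 and 1 beyond 2-fold (median 0.26), and the number lower was 3 without D4 replicate 1, 9 with library totals alone and 8 with only the 6 libraries. Fst, follistatin, a binder of myostatin and activin, went from 9.46, 7.94 and 9.01 CPM to 403, 359.7 and 375 CPM (5.43, SE 0.10), Tgfb3 rose by 1.93 and Gdf15, a stress cytokine, fell by 2.23. Of 21 Notch genes 3 rose and 8 fell, 1 and 2 beyond 2-fold (median -0.18), with the ligand Dll1 at 1.30, Hes6, an antagonist of HES1, at 1.44, and Lfng, a glycosyltransferase of the receptors, at -1.84. Of 8 imprinted genes tested 4 rose and 2 fell, 3 rising beyond 2-fold (median 0.55), Igf2 and Cdkn1c among them. The number lower was 1 without D0 replicate 3 and 0 without D4 replicate 1.

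Genes of muscle protein turnover mostly rose. Of 26 genes 19 rose and 2 fell, 15 rising beyond 2-fold (median 1.65). Fbxo40 (6.44), a muscle ubiquitin ligase subunit, Trim72 (5.58), the membrane repair protein MG53, and Klhl41 (4.55), a kelch protein of nemaline myopathy, rose, and the chaperone genes Hsp90aa1 (-0.76) and Hspb6 (-0.52) fell. The number lower was 4 with library totals alone and on the log2(TPM + 1) scale. Of 65 ribosomal protein genes 4 rose and 10 fell, 0 beyond 2-fold (median -0.11), shares below the background of 30.2% and 27.7%. On the log2(TPM + 1) scale 0 rose and 46 fell, with library totals alone 0 rose and 35 fell, with only the 6 libraries 22 fell, and the number lower was 5 without D0 replicate 3 or D4 replicate 3, 6 without D4 replicate 2 and 13 without D0 replicate 1, and the number higher was 1 without D0 replicate 2 and 2 without D0 replicate 1 or D4 replicate 1, so the count depends on the scaling and on single libraries. Rps12 and Rps27 were listed at 0 in all 6 libraries. Of 28 ribosome assembly genes 7 rose and 10 fell, 1 and 0 beyond 2-fold (median -0.04), with Npm1, nucleophosmin, at -0.99 and Rrp12, an assembly factor, at 1.30, and 3 rose with library totals alone and on the log2(TPM + 1) scale. Myc, the growth regulator, was at 25.9, 19.8 and 28.3 CPM and 17.4, 18.4 and 19 CPM (-0.43, SE 0.19, adjusted p = 0.062). It passed with only the 6 libraries (adjusted p = 0.0072 from edgeR), with library totals alone (0.00952), on the log2(TPM + 1) scale (0.0191 from limma) and without D0 replicate 2 (-0.56, adjusted p = 0.0278 from edgeR).

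Stress and clock genes went both ways, where 30.2% of all genes rose and 27.7% fell. Of 18 genes of the unfolded protein response 4 rose and 8 fell, 1 and 0 beyond 2-fold (median -0.16), with Herpud1, a protein of the endoplasmic reticulum, at 1.37. With library totals alone and on the log2(TPM + 1) scale 2 rose, and the number lower was 4 to 5 without D0 replicate 1, D4 replicate 2 or D4 replicate 3. Of 16 interferon genes 3 rose and 5 fell, 1 and 1 beyond 2-fold (median -0.17). Of 24 immediate early genes 4 rose and 11 fell, 1 and 2 beyond 2-fold (median -0.27), with Fosl1, the AP-1 factor FRA1 of growing cells, at 30.3, 20.9 and 27.1 CPM and 1.16, 1.28 and 1.45 CPM (-4.30, SE 0.33), Nr4a2 at -2.72 and its fellow orphan receptor gene Nr4a1 at 2.59. The number of immediate early genes higher was 7 with only the 6 libraries and 2 on the log2(TPM + 1) scale. Of 19 clock genes 8 rose and 2 fell, 1 and 0 beyond 2-fold (median 0.10). The number of clock genes lower was 1 without D0 replicate 3, D4 replicate 1 or D4 replicate 3, 4 with only the 6 libraries and 5 with library totals alone.

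Markers of other cell types were mostly low, apart from Spp1, and their part in the results was not tested. Of 5 osteoblast markers tested of 8, 1 rose and 3 fell, and their summed level was 2764 to 3079 CPM at D0 and 450 to 513 CPM at D4. Nearly all of it was Spp1, osteopontin, which is not limited to bone, at 2980.2, 2672 and 2979.7 CPM and 448, 409 and 471 CPM (-2.70, SE 0.15). The marker that rose, Alpl, alkaline phosphatase, had 1 count at D0 and 42 at D4. Of 6 smooth muscle markers of 7, 3 rose and 3 fell (125 to 142 CPM and then 148 to 172 CPM), Myh11 was under the filter with at most 6 counts in a library, and of 6 cardiac markers of 8, Myh6 and Tnni3, which this list shares with the sarcomere lists, rose and Nppb fell (20.5 to 22.5 CPM and then 71.3 to 75.6 CPM). Of 4 neural markers of 8, Tubb3 and Mbp fell (98.9 to 121 CPM and then 23.4 to 27.8 CPM), and Rbfox3 was listed at 0. Of 5 adipocyte markers of 10, 2 fell (45.2 to 48.6 CPM and then 27.8 to 32.1 CPM) and Adipoq had at most 1 count in a library. Of 4 endothelial markers of 7, 1 rose (6.40 to 9.07 CPM and 7.56 to 9.09 CPM), and of 5 blood cell markers of 8, 1 fell (8.23 to 9.38 CPM and then 4.29 to 5.22 CPM), with Cd3e at 0 or 1 count. The number of adipocyte markers lower was 1 without D0 replicate 2 or D4 replicate 3, that of cardiac markers lower was 2 without D0 replicate 1 and 0 without D0 replicate 3 or D4 replicate 3, and the endothelial rise was lost without D0 replicate 3 or D4 replicate 3.

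The genes with the largest rises were at or near 0 at D0. Ppp1r3a, the muscle subunit that brings protein phosphatase 1 to glycogen, had 0 counts in every D0 library and 22.1, 18.1 and 29.6 CPM at D4, at least 661-fold higher against the floor of 3 counts. Fxyd6, a regulator of the sodium pump, was at 0.0389, 0.0641 and 0.0467 CPM and 36.7, 29.3 and 37.2 CPM (9.27, SE 0.25), and Ptgds, prostaglandin D synthase, rose by 7.71 on the log2 scale. Others of the largest were Asb14 (9.02), Ppfibp2 (8.04), Pacsin1 (7.07), Tekt5 (6.59), Atp6v1c2 (6.57) and 3425401B19Rik (6.60), besides Myot, Myl2, Mybpc1, Mybpc2 and Cox6a2 of the lists above. Asb14 had 2 counts in all at D0, Ppfibp2 and Ptgds 3, and counting intervals of their ratios were 170.7 to 5104, 99.4 to 1415 and 79.5 to 1133. At the other end, the neurofilament genes Nefl and Nefm were measured in myoblasts and fell. Nefl was at 121, 114 and 114 CPM at D0 and 0.134, 0.213 and 0.124 CPM at D4 (-9.58, SE 0.20), and Nefm fell by 4.55. The related prolactin family genes, Prl2c3 (111, 83.8 and 79.7 CPM at D0 and 0, 0.299 and 0.0708 at D4) and Prl2c2 (31.4, 17.6 and 20.9 CPM at D0 and 0 at D4, at least 785-fold lower), all but vanished, and since their sequences are close the division of reads between them is uncertain. Further down were Hhip (-8.31), an inhibitor of hedgehog ligands, Gap43 (-5.0), a growth cone protein, Aqp1 (-4.07), a water channel, and the replication-linked histone gene Hist1h1a (-4.41). Igsf5, Ccdc73, Ptprn, Slc14a1 and Krt13 were lower, with log2 fold changes of -7.35, -4.95, -4.93, -4.93 and -4.27 in that order.

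More regulators of splicing fell than rose. Of 22 tested 6 rose and 12 fell, 3 and 2 beyond 2-fold (median -0.56), where 30.2% of all genes rose and 27.7% fell. The number higher was 3 on the log2(TPM + 1) scale. Rbfox1, a factor of muscle and neurons, rose from 0.234, 0.705 and 0.467 CPM to 22, 24.2 and 24.8 CPM (5.60, SE 0.23), Rbm38 by 3.20 and Rbm24 by 2.25. Ptbp1, the polypyrimidine tract binding protein, fell from 271, 247 and 245 CPM to 104, 106 and 106 CPM (-1.27, SE 0.07, adjusted p = 8.01e-12), and Hnrnpa1 fell by 1.55 and Mbnl3 fell by 1.31. For these genes the D4 and D0 libraries given did not overlap. Mbnl1, muscleblind-like 1, was at -0.24 (SE 0.18, adjusted p = 0.248), and passed with library totals alone and with only the 6 libraries (adjusted p = 0.0327 and 0.0476 from edgeR).

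Transcripts of the same gene changed their shares in 191 genes. Of 32890 transcripts of 7748 genes tested, 265 (0.806%) passed edgeR's diffSpliceDGE test at an adjusted p under 0.05 and moved by at least 20 percentage points of the gene's TPM, 156 up and 109 down. In 126 of the 191 genes the gene as a whole had not changed beyond 2-fold, and in 31 it had not been called at all. Over all 14844 genes tested, 2169 changed beyond 2-fold and 8605 were called, so most had not changed beyond 2-fold in any case. Of 40 genes of the list of known muscle switches that could be tested, 15 held a called transcript. Shares rest on how Kallisto divided reads among transcripts, and the error of that division is not in the values used here.

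Pkm switched between its mutually exclusive exons, which give the M1 and M2 forms of pyruvate kinase. Pkm-201, the M2 form of dividing cells, held 83.9, 83.5 and 83.4% of the gene's TPM in the D0 libraries and 34.3, 36.8 and 34.3% at D4, and Pkm-202, the M1 form of muscle, 16.1, 16.5 and 16.6% and 65.7, 63.2 and 65.7% (adjusted p = 1.96e-07 and 2.89e-09 from diffSpliceDGE). The libraries of a day lay within a few points of each other and the days were far apart. Both exons are exon 9 of 11 of a coding transcript, each is 167 bases long, and 103 bases (61.7%) are the same. They are printed from GENCODE M21 (GRCm38, plus strand) for chr9:59675568-59675734 and chr9:59675029-59675195, with capitals at the bases that differ.
Pkm-201: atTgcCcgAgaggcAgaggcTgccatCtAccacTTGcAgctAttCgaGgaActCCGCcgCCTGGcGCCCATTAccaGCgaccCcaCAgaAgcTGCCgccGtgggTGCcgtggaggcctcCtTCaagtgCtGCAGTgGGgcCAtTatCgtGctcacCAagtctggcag
Pkm-202: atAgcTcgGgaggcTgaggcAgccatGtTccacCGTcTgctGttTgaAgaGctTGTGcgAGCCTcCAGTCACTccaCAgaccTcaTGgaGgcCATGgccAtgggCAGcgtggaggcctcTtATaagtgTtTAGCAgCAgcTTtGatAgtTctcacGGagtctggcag
Slc25a3, the mitochondrial phosphate carrier, switched more completely, between alternative forms of its exon 3. Slc25a3-201 went from 73.6, 76.3 and 75.6% to 12.9, 12.1 and 12% and Slc25a3-206 from 10.4, 11.8 and 11.8% to 83.1, 81.7 and 82.4% (adjusted p = 1.58e-10 and 7.2e-13), while the gene rose from 499 to 577 TPM in the mean. The exons, on the minus strand at chr10:91121922-91122043 and chr10:91122207-91122331, are 122 and 125 bases long.
Slc25a3-201: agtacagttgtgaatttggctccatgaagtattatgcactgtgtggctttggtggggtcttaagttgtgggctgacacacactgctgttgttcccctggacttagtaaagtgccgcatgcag
Slc25a3-206: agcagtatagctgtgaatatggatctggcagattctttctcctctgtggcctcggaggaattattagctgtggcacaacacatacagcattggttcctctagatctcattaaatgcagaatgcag

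**Figure D4:**
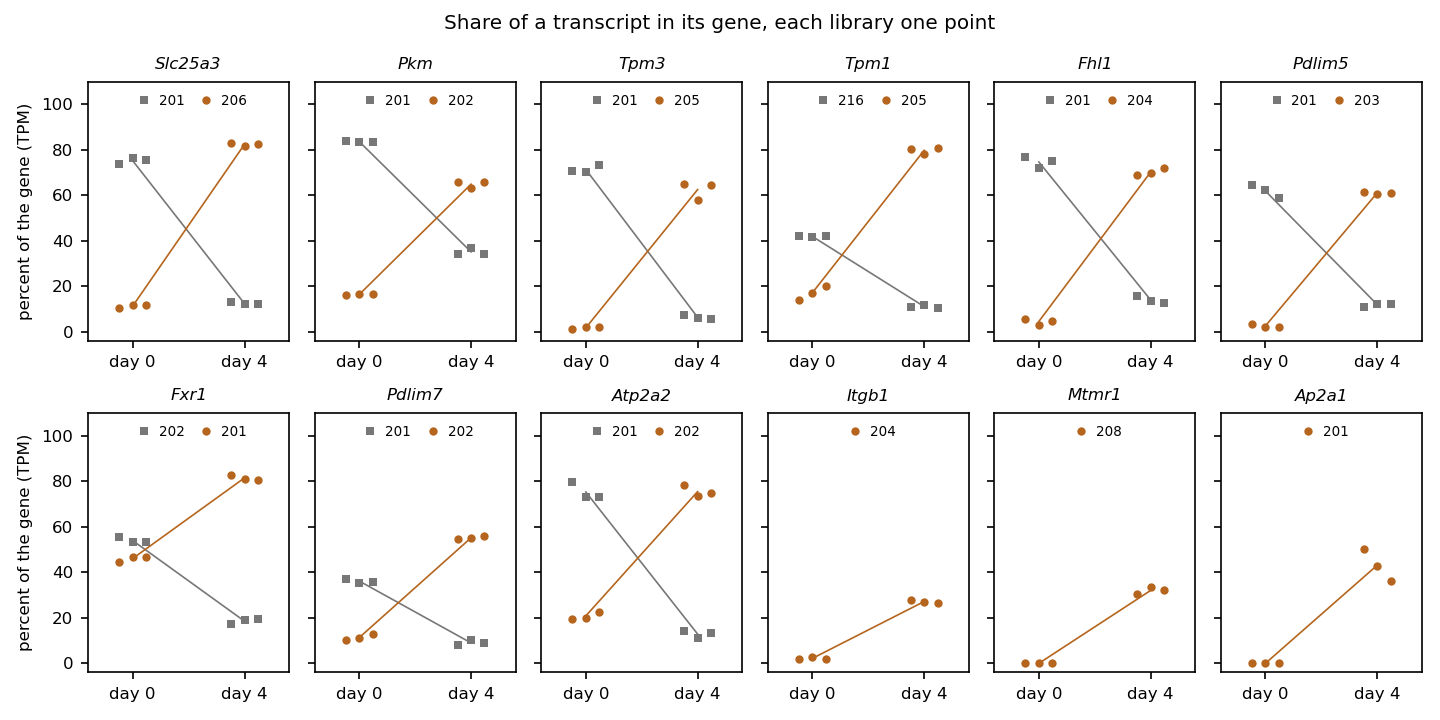
Share of named transcripts in their gene (percent of the gene's TPM, vertical axis) in the 3 D0 and 3 D4 libraries of 12 genes, with lines joining the means. Numbers in the legends are the endings of transcript names, and for the last 3 genes 1 transcript is drawn. Pkm-202 moves from 16.4% to 64.9%, and Mtmr1-208 from 0% to 32.1%.

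Genes of the cytoskeleton were among the switches. Tpm3, a slow muscle tropomyosin gene with non-muscle forms, had 70.5, 70.2 and 73.2% of its TPM in Tpm3-201 at D0 and 7.20, 6.09 and 5.79% at D4, and 1.21, 1.91 and 2.08% and then 65, 57.9 and 64.6% in Tpm3-205 (adjusted p = 2.35e-31), although the gene as a whole stood at a log2 fold change of -0.03 by counts. With transcripts of unequal length, that gene value was 0.46 on the log2(TPM + 1) scale (adjusted p = 0.000131 from limma). Tpm1-205 rose from 17.1% ± 2.91 to 79.8% ± 1.53 of its gene (SD, n = 3), Fhl1-204, of a LIM-domain protein gene, from 4.59% ± 1.28 to 70.2% ± 1.64, and Pdlim5-203, of a Z disc PDZ-LIM gene, from 2.60% ± 0.771 to 61.1% ± 0.306. Their genes changed by 1.14, 0.38 and 0.30 on the log2 scale. Pdlim7-202 went from 11.3% ± 1.33 to 55.2% ± 0.654, Fxr1-201, of an RNA-binding protein gene, from 46.1% ± 1.23 to 81.5% ± 1.21, and Ncam1-204, of the neural cell adhesion molecule, from 29.4% ± 2.39 to 7.42% ± 0.585. Schip1-207 rose from 20.8% ± 0.999 to 71.5% ± 0.682, Clasp1-204, of a microtubule-binding protein gene, from 7.33% ± 2.98 to 32.4% ± 0.656, and Mfn2-201, of the mitochondrial fusion gene mitofusin 2, from 12.4% ± 3.36 to 67.1% ± 3.50. Dtna-201, of dystrobrevin alpha, rose from 39.5% ± 5.28 to 71.9% ± 0.620.

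Other switches were less secure. Atp2a2-201, of the slow calcium pump, went from 79.8, 72.9 and 73.2% to 14.1, 11.2 and 13.3% and Atp2a2-202 from 19.7, 20.1 and 22.7% to 78.2, 73.3 and 74.9% (adjusted p = 0.00514 and 0.0277). The shares did not overlap, but Atp2a2-201 lost its call whichever D4 library was left out (adjusted p = 0.0531 to 0.0683) and Atp2a2-202 without D0 replicate 2, without D0 replicate 3 and whichever D4 library was left out (adjusted p = 0.0508 to 0.139). Twf2-201, of twinfilin-2, went from 85.2, 75.8 and 82.9% to 7.23, 0 and 5.53% and Twf2-204 from 11.6, 18.4 and 11% to 89.5, 92.4 and 89.4% (adjusted p = 0.024 and 0.0169). These were the largest differences among the switches named, yet Twf2-201 passed only without D4 replicate 2 when single libraries were left out, and Twf2-204 only without D0 replicate 2 or D4 replicate 2. Ryr1-202 (25.7% ± 7.26 and 54.1% ± 6.71) lost its call without D4 replicate 1 or 2 (adjusted p = 0.0719 and 0.0602), and Tnnt1-201 (19% ± 4.47 and 39.6% ± 0.451) without D0 replicate 2, where its share moved by 18.1 points.

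Short stretches of coding sequence marked several of the D4 transcripts. Ap2a1, an adaptor protein of coated pits, was picked after its values were seen, and Itgb1 and Mtmr1 are of the list of muscle switches. Mtmr1-208, of a myotubularin-related phosphatase, was at 0% in every D0 library and at 30.4, 33.4 and 32.3% at D4 (adjusted p = 1.07e-06), and holds exons of 24 and 27 bases, at chrX:71376887-71376910 and chrX:71377604-71377630, that Mtmr1-201 lacks. Both are printed together from GENCODE M21 (GRCm38, plus strand), in capitals and with 21 bases of the transcript on each side.
Mtmr1-208: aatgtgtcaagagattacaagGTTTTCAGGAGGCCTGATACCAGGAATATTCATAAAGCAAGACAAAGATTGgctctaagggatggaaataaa
Itgb1-204, of the beta 1 integrin, rose from 2.07, 2.69 and 1.74% to 28, 27 and 26.4% (adjusted p = 1.5e-12 from diffSpliceDGE). It holds 72 coding bases, in its exon 3 of 4, at chr8:128726983-128727054 on the plus strand, that Itgb1-201 lacks. Ap2a1-201 was at most 0.000620% at D0 and 50.3, 42.7 and 36.3% at D4 (adjusted p = 2.68e-09), with 66 bases, at chr7:44903462-44903527 on the minus strand, that Ap2a1-204 lacks.
Itgb1-204: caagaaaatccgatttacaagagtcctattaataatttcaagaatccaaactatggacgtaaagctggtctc
Ap2a1-201: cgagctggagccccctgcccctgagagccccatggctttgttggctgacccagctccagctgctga
The lengths given are of coding bases and are multiples of 3. They need not be the lengths of whole exons.

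The same D0 libraries also serve as controls for the other C2C12 myotubes, so values are set side by side without a test. The median of the thick filament list was 5.01 on plastic at D4, 5.01 on unpatterned gelatin, 5.20 on patterned gelatin and 5.25 on plastic at day 7. For mitosis genes the values were -2.86, -3.06, -3.25 and -3.21 in that order. Myog stood at 2.44 on plastic at D4, 2.48 on unpatterned and 2.46 on patterned gelatin, and 2.36 on plastic at day 7. Myod1 stood at 0.07, -0.10, 0.04 and -0.11, and Igf2 at 3.27, 3.43, 3.31 and 2.84.

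Primary mouse muscle cells at day 0 and D4, with controls of their own, gave a separate setting, though they differ from C2C12 in more than cell type. They were isolated from hindlimb muscle of 8-week-old C57/Bl6J mice, grown before plating in another medium (Ham's F-10 with more serum and basic FGF) on dishes coated with matrix gel, and differentiated on patterned gelatin, and cell type, source, medium and substrate cannot be told apart. In them 6116 of 14352 genes (42.6%) changed, 2903 higher and 3213 lower. Here only replicate 3 was clearly set apart by its number, and with the number as a block 8277 genes changed. Of the 1183 genes higher beyond 2-fold in C2C12, 1060 were tested in primary cells and 858 (80.9%) rose there, where 20.2% of all genes rose, and 10 fell. Of the 986 lower genes 892 were tested and 645 (72.3%) fell, where 22.4% of all genes fell, and 17 rose. The change differed between the cell types in 3052 of 15447 genes (19.8%). In C2C12 the log2 fold change was larger, that is more positive, in 1639 and smaller in 1413.

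Myod1 and Myog were among the genes whose change differed. Myod1 was at 755, 932 and 898 CPM in primary cells at day 0 and 245, 267 and 216 CPM at D4, against 144, 154 and 179 and 166, 170.1 and 164 CPM in C2C12 (CPM scaled over all 30 libraries). It fell in primary cells (-1.88) and not in C2C12, and the difference of 1.90 passed (SE 0.18, adjusted p = 3.62e-08). Myog was at 538, 543 and 218 CPM in primary cells at day 0 and 730.4, 709 and 386 at D4 (0.43, adjusted p = 0.46). With the replicate number as a block Myog rose there too (0.50, adjusted p = 0.00945 from edgeR). The difference from C2C12 was 1.96 without the block (SE 0.40, adjusted p = 0.00101). Primary replicate 3 was the lowest on both days. Igf2 was far higher in primary cells, at 5521, 5385 and 4240.2 CPM and 5054, 5300.2 and 6079 CPM (0.07, adjusted p = 0.77), and the difference was 3.16 (SE 0.27, adjusted p = 1.23e-08). Myh4, the fastest myosin, differed the other way, by -3.79 (SE 0.65, adjusted p = 0.000166), with 0.442, 0.243 and 0.252 CPM at day 0 and 53.8, 151 and 146 at D4 in primary cells. Of the 48 genes of the fixed panel, 22 had a change that differed, where 19.8% of all genes did. The log2 fold change was more positive in C2C12 in 17 of these, Myod1 among them, and lower in 5.

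**Figure D5:**
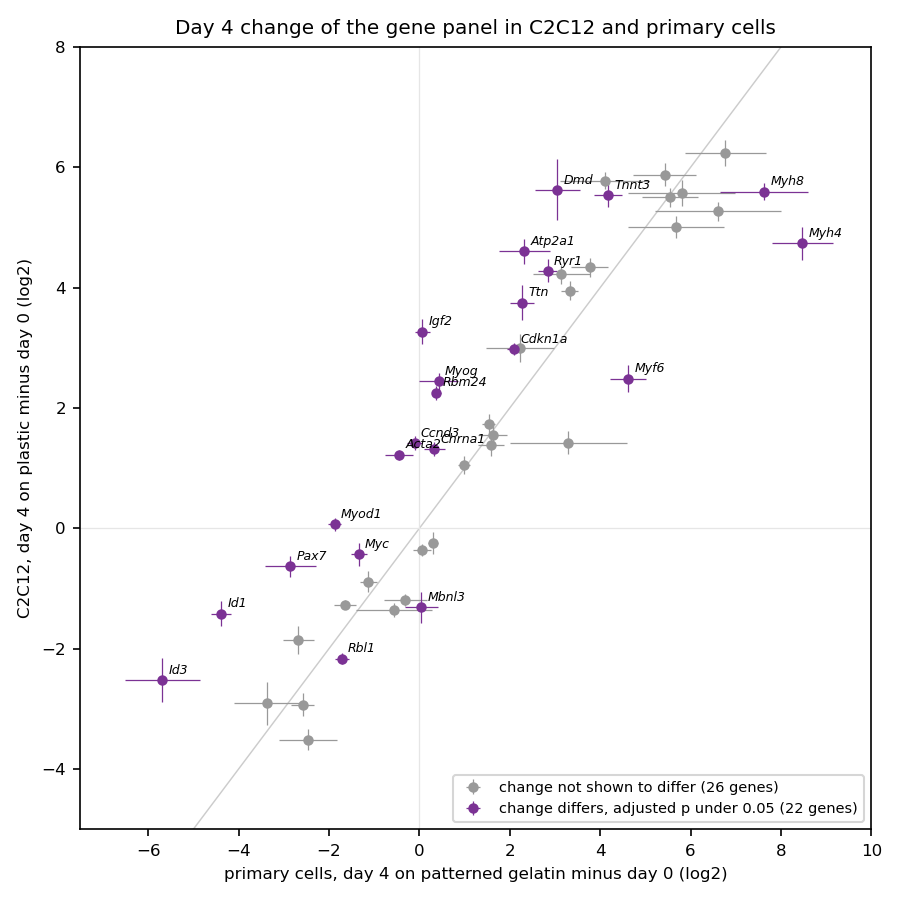
Log2 fold change between day 0 and D4 of 48 panel genes in primary cells on patterned gelatin (horizontal axis) and in C2C12 on plastic (vertical axis), with standard errors and the line of equality in grey. The 22 purple genes have a change that differs at an adjusted p under 0.05, and Igf2 lies at 0.07 in primary cells and 3.27 in C2C12.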

How the data were processed

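RNA of 3 cultures per condition was sequenced in paired-end mode on a NextSeq instrument (NEBNext libraries). The authors quantified reads with Kallisto on mm10 (GRCm38) and deposited, per transcript, estimated counts and TPM. Its version and annotation were not given in the sources used here. Of 88198 transcripts, 86031 were matched to GENCODE M21 and summed per gene, and unmatched transcripts held 0.758% to 0.872% of the counts of the 6 libraries.

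Estimated counts were rounded per gene, filtered (filterByExpr, minimum count 10) and scaled by TMM. All 21 C2C12 libraries were fitted together with edgeR 4.0.16 in R 4.3.3, by the quasi-likelihood test with Benjamini-Hochberg adjustment and by glmTreat for changes beyond 2-fold. The test of transcript shares (diffSpliceDGE) used the 6 libraries. The comparison with primary cells used the interaction term over all 30 libraries. Alternatives used limma 3.58.1 on log2(TPM + 1) and DESeq2 1.42.0. The tests of genes and of transcript shares were tried on simulated counts of the 6 libraries alone. The joint C2C12 fit, the primary fit and the interaction were not simulated. Sequences were read with Python 3.11.15.

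Members and gene lists were chosen with earlier results of these data known. Named genes were the 15 highest and 15 lowest protein-coding genes beyond 2-fold (at least 5 CPM in the higher group), a fixed panel, up to 6 members of each other list with the smallest adjusted p in each direction, the fixed muscle isoform list with the 15 largest share differences (genes of at least 20 TPM in both groups), and the 5 most positive and 5 most negative differences from primary cells. A few genes that this rule names are not reported here. Genes outside this rule are marked in the text, and the gene families were also chosen after their values were seen. Replicates are separate cultures of 1 line, so p-values measure the spread between cultures. The paper describes 2 batches of C2C12 cells and reports that the regulated genes often differed between them. The sample labels used here name no batch, so the p-values may not cover variation between batches.

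The replicate numbers did not pair the C2C12 samples, since the deviations of same-numbered D0 and D4 libraries from their group means correlated at 0.0841, -0.0033 and 0.0465 across genes. In primary cells same-numbered libraries correlated at 0.275, 0.437 and 0.523. Day 0 replicate 1 correlated at 0.28 with D4 replicate 2, and day 0 replicate 2 at 0.251 with D4 replicate 1. Only replicate 3 was thus clearly set apart by its number. This check was made from the data and added after they were seen, as was the block for single primary genes. Other libraries than those described were used only in the shared fit and in the values set side by side.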

Additional observations from a re-analysis of the deposited data

Results flagged for a closer look

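The change from day 0 to D4 differed between C2C12 on plastic and primary cells on patterned gelatin in 3052 genes (interaction term of edgeR's quasi-likelihood test, adjusted p under 0.05). In C2C12 the log2 fold change was larger, that is more positive, in 1639 and smaller in 1413. Cell type, source, growth medium and substrate cannot be told apart in this difference. Of the fixed panel genes described above, the difference was 1.90 for Myod1, 1.96 for Myog, 3.16 for Igf2 and -3.79 for Myh4.

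The 5 genes with the largest positive differences were Gm13835 (9.88, adjusted p = 0.0206 from edgeR), Camk1g (6.47), Tex16 (6.24), Fxyd6 (6.20) and Sct (5.93). Gm13835 and Tex16 were at 0 counts in every C2C12 library of D0, so their fitted differences depend on the prior count and are no bounds. Camk1g, a calcium-dependent kinase gene, was at 1.44, 2.03 and 2.50 CPM and then 4.07, 5.13 and 3.49 CPM in C2C12, and at 20.1, 21.6 and 26.8 CPM and then 0.800, 0.514 and 0.318 CPM in primary cells. Sct, which encodes secretin, was at 53.1, 56.2 and 40.5 CPM in primary cells at day 0. It was at most 0.0867 CPM in any C2C12 library of the comparison, so its fitted difference also depends on the prior count and is no bound. Its call was lost without D4 replicate 1 of C2C12 (4.91, adjusted p = 0.255 from edgeR), and that of Gm13835, which was at 0 in every C2C12 library of D0, without D0 replicate 2 (adjusted p = 0.0545 from edgeR). Fxyd6 in primary cells was much lower in replicate 3 on both days, at 50.1, 53.9 and 1.33 CPM and then 380.3, 439 and 67.9 CPM.

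The 5 genes with the largest negative differences were Prl2c2 (-16.06), Prl2c3 (-14.21), Igsf5 (-10.55), Stmn4 (-8.46) and Nefl (-7.29). Prl2c2, Prl2c3, Igsf5 and Stmn4 had groups at or near 0, so their fitted differences depend on the prior count and are no bounds. Prl2c3 was at 108, 81.7 and 77.6 CPM in C2C12 at D0 and 14, 11.2 and 0 CPM in primary cells at D4. Nefl was at 117, 111 and 111 CPM in C2C12 at D0 and 1.09, 1.46 and 0.180 CPM in primary cells at day 0. The call of Igsf5 was lost without primary D4 replicate 2 (-9.75, adjusted p = 0.0756 from edgeR).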

How the results depend on the processing

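The number of genes higher at D4 was 2711 on log2(TPM + 1) and 2781 on log2(TPM + 0.1), against 4487 by counts, and the other alternatives kept each count of changed genes within 1.5 times. Without single libraries, 7863 to 8182 genes changed (3993 to 4339 higher, 3647 to 3925 lower) and 2016 to 2098 changed beyond 2-fold (1089 to 1162 higher, 884 to 936 lower). In primary cells 4887 to 6065 changed (2371 to 2891 higher, 2510 to 3174 lower), and 2467 to 3282 differed between cell types (1200 to 1867 larger, 1081 to 1588 smaller in C2C12). The transcripts with a changed share were 213 to 269 (129 to 168 up, 84 to 109 down), 487 with limma voom and diffSplice (266 up, 221 down), and 559 with 10 percentage points required (330 up, 229 down).

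With the replicate number as a block, 8613 genes changed over 21 libraries and 9644 over the 6 libraries, 2169 and 2251 of them beyond 2-fold, with 228 transcripts, 8277 genes in primary cells and 4434 differences between cell types. Of the D0 libraries, replicate 1 correlated best with the D4 library of its own number and replicates 2 and 3 did not. Under the block the calls of Twf2-201, Twf2-204 and Ryr1-202 were lost (adjusted p = 0.116, 0.106 and 0.104 from diffSpliceDGE), and Myc, Mbnl1 and Wdhd1 passed with the block in the 6 libraries (adjusted p = 0.0024, 0.0216 and 0.0121 from edgeR), of which Myc and Mbnl1 also passed in the 6 libraries without it (0.0072 and 0.0476). In primary cells Myog gained a call under the block, and Myod1, Igf2 and Myh4 kept theirs or stayed without one.

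Signs turned for genes near 0. With library size alone Myod1 was at -0.12 and Cdh15 at -0.15, and on both TPM scales at -0.14 and -0.16. Without single libraries Myod1 was at -0.018 (without D0 replicate 1) to 0.16, Cdh15 at -0.088 (without D0 replicate 1) to 0.10, E2f2 at -0.064 to 0.086 (above 0 without D0 replicate 2, D4 replicate 1 or D4 replicate 3) and Tpm3 at -0.059 to 0.021 (above 0 without D4 replicate 1). On both TPM scales Tpm3 was at 0.46 and Asph at 0.0019, and Tmod4 was at -0.10 on log2(TPM + 1) and -0.13 on log2(TPM + 0.1). Of 2844 values of named genes under all alternatives 2802 kept direction and side of the threshold, 12 lost the call, 12 gained one and 18 turned, and the cause was not tested. Of 1230 counts of list members, 1139 stayed within 1.5 times and 57 fell and 34 rose past it. Alpl was not called on log2(TPM + 1), Eno1 on either TPM scale, Fhl1 and Pdlim5 with library size alone, and Nppb without D0 replicate 3 or D4 replicate 3. Depth limits genes near 0 at D0, whose folds are bounds or ratios with counting intervals.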
